A study of Mus musculus with 7 samples.

Results

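The mitosis and G2/M genes are 43 genes whose products take a cell from the end of DNA replication through chromosome segregation to division. They were chosen by name, as the rows of the deposited tables whose symbol equals a listed one, and all 43 were found among the 19736 gene rows of each table. Their RNA was measured by RNA-seq in regulatory T (Treg) cells, the Foxp3+ T cells that restrain immune responses, sorted by flow cytometry from lung tissue digests. There were 3 libraries of Foxp3-EGFP+ CCR6+ cells and 4 libraries of Foxp3-EGFP+ CCR6- cells, which the series names as controls. CCR6 is a chemokine receptor whose ligand is CCL20. Cells of both groups came from female mice, aged 5 to 7 weeks, with a Foxp3-EGFP reporter and the Il4raR576 allele, a variant of the receptor subunit that binds IL-4. The mice of both groups had been sensitised with 100 µg of intraperitoneal ovalbumin and boosted after 2 weeks. From day 29 they breathed nebulised 1% ovalbumin daily, 30 min each time, over 3 days, and cells were taken on day 32. Mice with another form of the receptor or without allergen were not analysed here. Nothing in the labels ties a library to a mouse or a pool of mice, so p-values measure only how much these libraries vary, and that variation may be technical.

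Entry into mitosis is driven by CDK1 bound to cyclin A and then to cyclin B, and is reinforced by Polo-like and Aurora kinases. Chromosomes are compacted, attached to the spindle at their kinetochores and held until the spindle checkpoint is satisfied, after which CDC20 activates the anaphase-promoting complex (APC/C), a ubiquitin ligase that has securin and cyclin B destroyed. In mammals most of these genes are silent in resting cells and are transcribed late in the cell cycle, so in a bulk library their level reflects both how many cells are cycling and how much RNA each one holds, which cannot be told apart here. Treg cells are known to divide more often than conventional T cells in the steady state, and MKI67 is the usual marker of that fraction.

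The libraries held 11607780 to 35182288 recovered reads in the CCR6+ group and 31083571 to 47261246 in the CCR6- group, and no pair within a group agreed within the noise of read sampling. The 8 Treg and T cell markers (Foxp3, Il2ra, Ikzf2, Ctla4, Tnfrsf18, Cd3d, Cd3e and Cd4) were present in every library. Their summed levels were 8647, 3462 and 7860 RPM (reads scaled to equal library depth) in CCR6+ replicates 1 to 3 and 4616 to 6718 RPM in CCR6- libraries. Their median log2 difference, CCR6+ minus CCR6-, was -0.20, with 5 of 8 negative. It was 0.28, with 1 of 8 negative, without CCR6+ replicate 2. CCR6+ replicate 2, the shallowest library, stood apart. It held the lowest sum of these markers and 2850 RPM of 7 epithelial markers, against 57.5 to 372 RPM in the other 6 libraries, as well as 1208 RPM of 7 endothelial and stromal markers against 171 to 285 RPM, and 2793 RPM of 8 macrophage and dendritic cell markers against 27.6 to 525 RPM. Counts and medians over all members are therefore given with and without it, as are the differences of many single genes.

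The promoters of these genes are shown because the members share letters that the choice of genes did not use. Late cell cycle genes of mammals are known to be repressed in resting cells and activated in cycling cells by complexes built on the MuvB core, which contact an element called CHR, often near a CCAAT box read by the factor NF-Y. RefSeq windows on GRCm38.p6 (the mm10 assembly), from 250 bases before to 50 after the transcription start, were matched by symbol for 36 of the 43 members. The first window listed for each gene was used. A whole chromosome was left out of this set of windows, so it does not hold every gene. The letters TTTGAA or the letters TTCGAA, taken as CHR on either strand, were found in 29 of these 36 windows (80.6%), against 19.4% of the windows of the 27025 genes in the set. CCAAT on either strand was found in 28 of 36 (77.8%), against 37.9%, and both together in 26 of 36 (72.2%), against 7.7%. Letters of the E2F type (the string TTTGGCG, the string TTTCGCG, the string TTGGCGC or the string TTCGCGC, either strand), known from S-phase genes, were found in 7 of 36 (19.4%), against 5.43%. These are matches of letters, with overlaps between motifs allowed, and not sites shown to be bound. All 29 windows with CHR letters held them within the stretch from 150 bases before to 50 after the start. That stretch, 200 bases, is printed 5′ to 3′ along the gene for cyclin B2 and for the member of smallest p in each functional group but cytokinesis. Capitals mark CHR and CCAAT letters on either strand.
Ccnb2 promoter, chr9:70421505-70421704, minus strand: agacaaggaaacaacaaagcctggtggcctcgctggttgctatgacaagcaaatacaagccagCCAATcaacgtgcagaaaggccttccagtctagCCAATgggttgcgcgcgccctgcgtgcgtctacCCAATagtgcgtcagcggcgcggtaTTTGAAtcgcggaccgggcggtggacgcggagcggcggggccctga
Ccnf promoter, chr17:24251360-24251559, minus strand: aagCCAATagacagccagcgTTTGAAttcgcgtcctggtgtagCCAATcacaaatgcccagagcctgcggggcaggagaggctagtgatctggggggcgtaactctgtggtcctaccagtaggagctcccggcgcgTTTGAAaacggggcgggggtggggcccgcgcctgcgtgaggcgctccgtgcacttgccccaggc
Bub1 promoter, chr2:127831810-127832009, minus strand: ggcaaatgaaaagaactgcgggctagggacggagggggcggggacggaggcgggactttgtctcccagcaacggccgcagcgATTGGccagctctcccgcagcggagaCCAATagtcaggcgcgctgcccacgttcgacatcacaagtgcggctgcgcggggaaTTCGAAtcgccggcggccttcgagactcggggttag
Cdca8 promoter, chr4:124936868-124937067, minus strand: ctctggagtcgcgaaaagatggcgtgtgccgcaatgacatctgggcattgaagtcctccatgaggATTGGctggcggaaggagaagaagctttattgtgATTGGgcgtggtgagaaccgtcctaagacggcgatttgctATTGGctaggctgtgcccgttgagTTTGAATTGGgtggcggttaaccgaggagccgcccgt
Kif2c promoter, chr4:117178723-117178922, minus strand: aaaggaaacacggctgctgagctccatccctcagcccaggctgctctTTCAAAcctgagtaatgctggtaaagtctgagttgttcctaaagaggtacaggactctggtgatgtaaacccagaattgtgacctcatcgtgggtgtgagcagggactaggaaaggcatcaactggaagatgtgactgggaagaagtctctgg
Hmgb2 promoter, chr8:57511693-57511892, plus strand: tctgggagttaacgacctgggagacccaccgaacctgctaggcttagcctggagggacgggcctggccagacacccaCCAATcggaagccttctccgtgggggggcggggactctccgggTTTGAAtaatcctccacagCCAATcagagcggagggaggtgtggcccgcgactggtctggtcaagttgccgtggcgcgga
Nuf2 promoter, chr1:169531415-169531614, minus strand: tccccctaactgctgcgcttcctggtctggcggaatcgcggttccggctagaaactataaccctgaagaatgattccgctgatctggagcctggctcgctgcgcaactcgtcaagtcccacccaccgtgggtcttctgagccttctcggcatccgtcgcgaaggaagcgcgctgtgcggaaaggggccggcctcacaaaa
Ccnb2 shows the arrangement most clearly, with CCAAT letters at 3 places upstream and TTTGAA just past the start, while Bub1 has the TTCGAA form. In Cdca8 the CHR letters share a base with a reversed CCAAT. In its printed window Kif2c has only CHR letters, on the reverse strand upstream of the RefSeq start used. That start lies inside the Kif2c gene as GENCODE annotates it, so the stretch at the upstream end of the gene was not searched. Nuf2 has neither motif in its window.

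**Figure D1:**
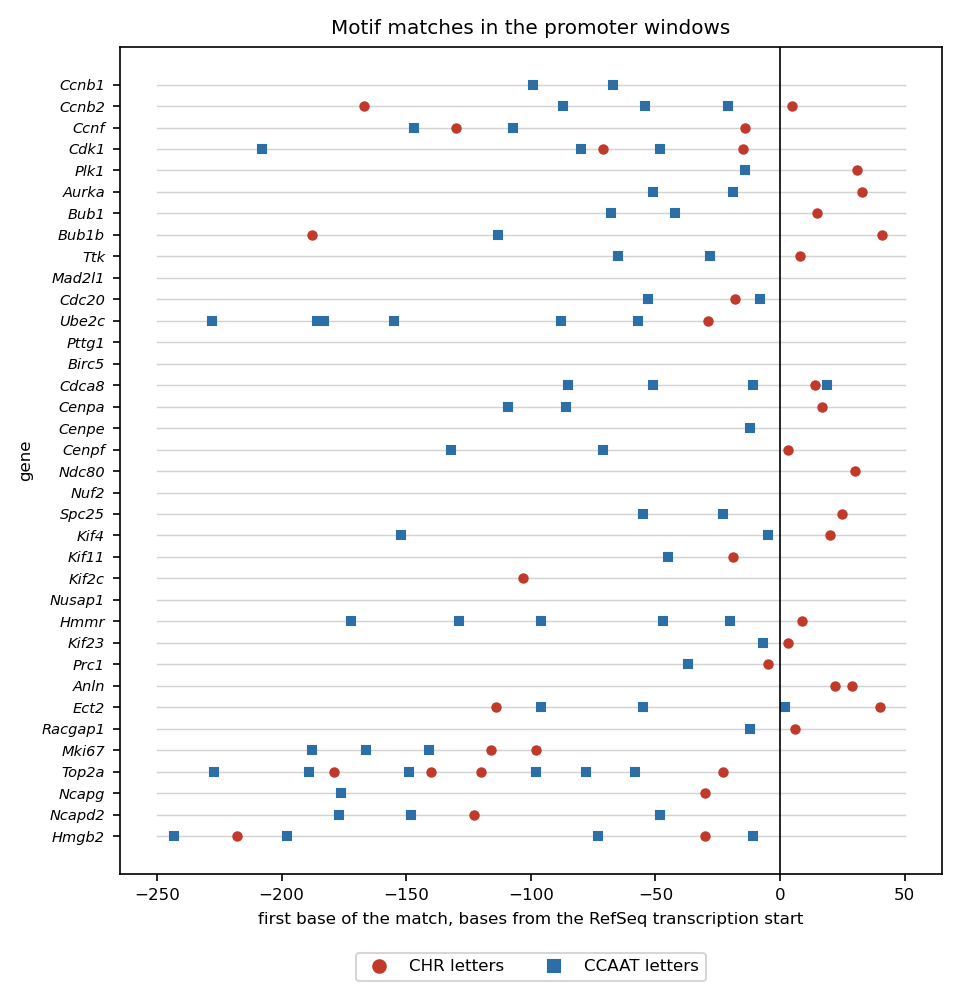
Matches of CHR letters (red circles) and CCAAT letters (blue squares), either strand, in the windows of 36 members, one line per gene. The x axis gives the first base of the match in bases from the RefSeq transcription start. CHR letters lie close to the start in most genes, with a median at -14.5 over 40 matches, and CCAAT letters lie upstream of it, with a median at -75.5 over 68 matches.

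The design sets Treg cells that carry the receptor against those that lack it. Nearly all mitosis genes had lower mean log2 values in CCR6+ than in CCR6- cells, by small amounts, and no single gene passed limma's test over all genes. Of the 43 members, 41 had a negative log2 difference, which was true of 43.1% of all 14582 genes tested and of 62.8% of the 7568 genes whose mean lies within the range of the members' means. The median log2 difference of the members was -0.38, against 0.097 over all genes and -0.094 over the genes in that range. All 43 members passed the filter on low values, with at least 223 reads in every library, so none was selected through the group in which it was high. In limma 0 members passed in either direction, with percent called at 0% of all genes in each direction. At an unadjusted p under 0.05 there were 12 members lower and 0 higher (27.9% of the members lower), against 2.35% of all genes lower and 8.22% higher, and 3.48% of the genes in the range lower. EdgeR on the recovered reads called 0 members, where it called 0% of genes lower and 0.0137% higher, and the same shares without CCR6+ replicate 2. DESeq2 on the same reads called 7 members lower and 0 higher, where it called 0.973% of genes lower and 3.85% higher.

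For 18 of the 43 members the highest CCR6+ library lay below the lowest CCR6- library, and for 0 members the reverse held. Genes so placed are called separated here. Separation downwards was found for 5.53% of all genes, separation upwards for 7.96%, and separation downwards for 8.97% of those in the members' range of means. Without CCR6+ replicate 2 the number was 21 of 43, against 8.62% of all genes and 12.4% of those in the range, and 0 members were separated upwards, against 10.5% of all genes. Leaving out that library kept the median of the members at -0.38 and the count of negative differences at 41, against 46.4% of all genes and 58.7% of those in the range. The members at an unadjusted p under 0.05 then numbered 8 lower and 0 higher, against 2.32% of all genes lower and 4.57% higher. DESeq2 without it called 1 member, Bub1, where it called 0.698% of genes lower and 0.917% higher. The members share regulators and are read from the same 7 libraries, so they are not independent of each other.

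The summed level of all 43 members was 3434, 3279 and 3665 RPM in CCR6+ replicates 1 to 3, and 4447, 5178, 4086 and 3486 RPM in CCR6- replicates 1 to 4. CCR6- replicate 4 thus lay within the CCR6+ range and the other 3 CCR6- libraries above it. Gene by gene, CCR6- replicate 2 held the highest value for 29 of the 43 members and CCR6+ replicate 2 the lowest for 24. CCR6- replicate 4 held the lowest for 9 members and the highest for 5. On the log2 scale the median of the members relative to the mean of the CCR6- libraries was -0.31, -0.52 and -0.37 in CCR6+ replicates 1 to 3. All 3 lean the same way, and the lowest is replicate 2, which also had the lowest Treg marker sum and the highest epithelial sum. The part of these sums in its values was not tested.

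**Figure D2:**
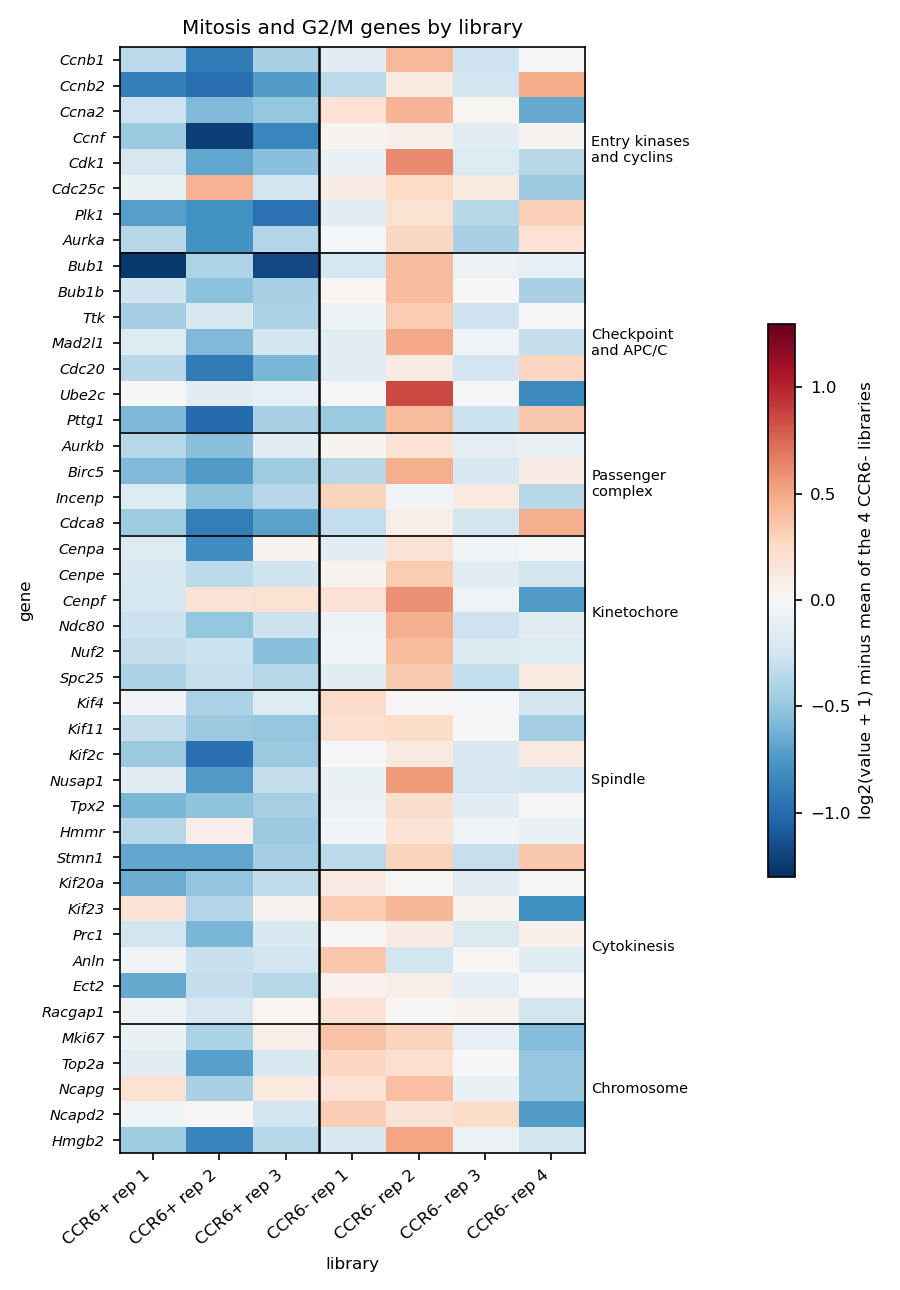
Log2(value + 1) of each member in each library, minus the mean of the 4 CCR6- libraries (colour, blue lower and red higher), with CCR6+ libraries on the left and genes grouped by role. Blue predominates in the 3 CCR6+ columns, while CCR6- replicate 2 is mostly red and CCR6- replicate 4 holds both colours.

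**Figure D3:**
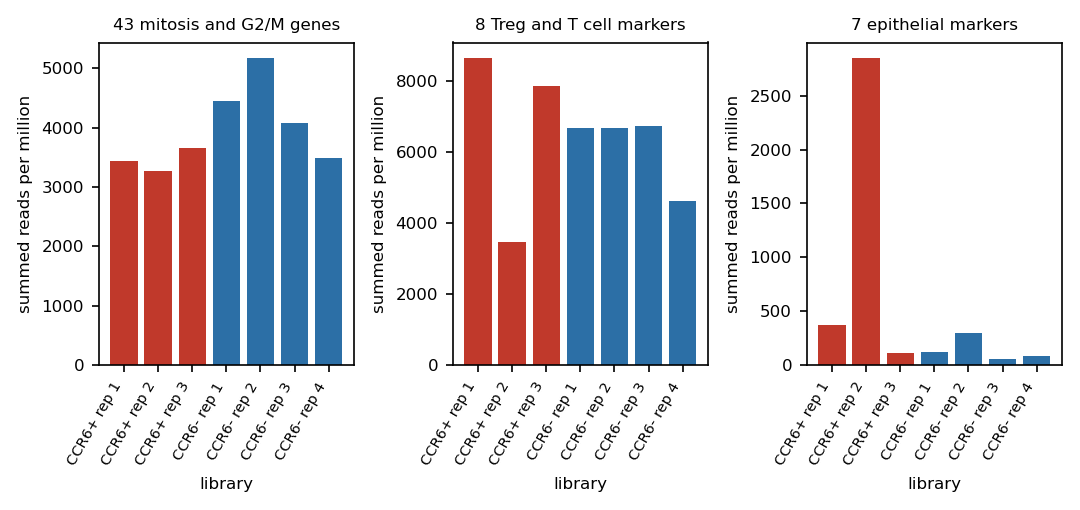
Summed RPM of the 43 mitosis and G2/M genes, of 8 Treg and T cell markers and of 7 epithelial markers in each library, CCR6+ in red and CCR6- in blue. The mitosis genes range from 3279 to 3665 in CCR6+ and from 3486 to 5178 in CCR6- libraries, and CCR6+ replicate 2 stands out in the other panels.

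The cyclins and kinases of mitotic entry had a median of -0.53 (-0.38 without CCR6+ replicate 2), with 7 of 8 members negative and 4 of 8 separated. Counts of separated members in this and the following groups stand against 5.53% of all genes. When CCR6+ replicate 2 was left out, 4 of 8 entry, 3 of 7 checkpoint and APC/C and 3 of 4 passenger complex genes were separated. So were 3 of 6 kinetochore, 4 of 7 spindle, 3 of 6 cytokinesis and 1 of 5 chromosome genes, against 8.62% of all genes. Ccnf, for cyclin F, a substrate receptor of an SCF ubiquitin ligase, had the smallest p of all members. It stood at 1415, 844 and 1097 normalised counts in CCR6+ replicates 1 to 3, and at 2021, 2065, 1800 and 2028 in CCR6- replicates 1 to 4. The groups were well apart, with means of 1119 ± 286 and 1978 ± 121 (SD, n = 3 and 4) and a log2 difference of -0.85 (SE 0.21, limma adjusted p = 0.418, DESeq2 adjusted p = 0.0125). That difference was -0.66 without CCR6+ replicate 2, where DESeq2 called 0 of the 8 entry genes. Ccnb2, for cyclin B2, stood at 2560, 2391 and 2858 in CCR6+ and at 3710, 5147, 3981 and 6622 in CCR6- libraries. Here too no library crossed over, and the difference was -0.87 (SE 0.25, limma adjusted p = 0.435, DESeq2 adjusted p = 0.0102). Plk1, the Polo-like kinase, stood at 1314, 1251 and 1106 in CCR6+ and 1962, 2476, 1672 and 2665 in CCR6- libraries, a difference of -0.82 that was -0.84 without CCR6+ replicate 2. Ccnb2 and Plk1 were singled out after their values were seen.

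The remaining entry genes were less well separated. Ccna2, for cyclin A2, the most abundant of the group, stood at 4605, 3712 and 3918 in CCR6+ libraries and at 6320, 7547, 5619 and 3511 in CCR6- libraries. CCR6- replicate 4 was the lowest of all 7, so the groups overlapped at a difference of -0.45 (SE 0.29). Ccnb1, for cyclin B1, was separated at -0.56, whereas Cdk1, the kinase both cyclins bind, and Aurka, for the Aurora kinase of spindle poles, overlapped at -0.48 and -0.50. Cdc25c, for a phosphatase that activates CDK1, was the scarcest member and gave no direction. Its values were 372, 544 and 332 in CCR6+ and 424, 474, 429 and 286 in CCR6- libraries, and the difference of 0.038 became -0.17 without CCR6+ replicate 2, where it was highest, and -0.043 with TMM scaling.

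**Figure D4:**
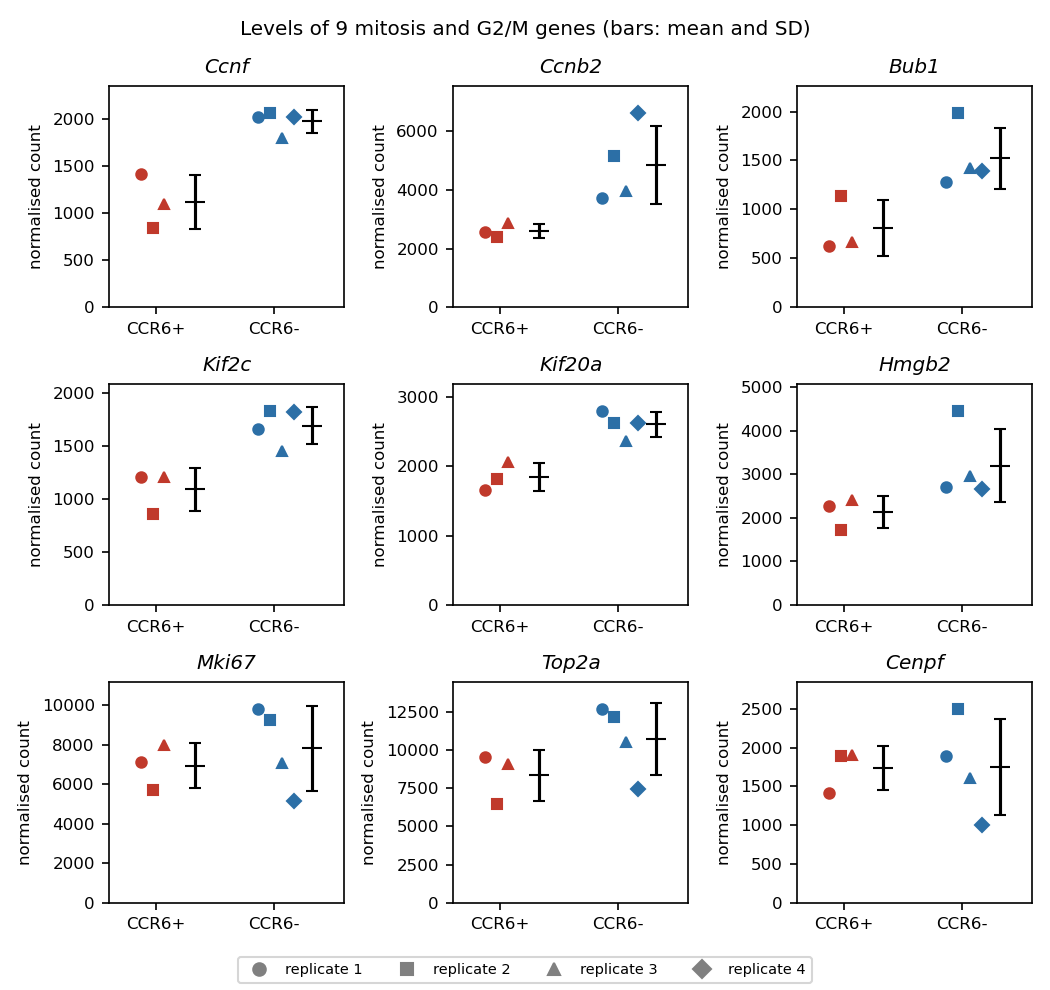
Normalised counts (y axes from 0) of 9 members in the CCR6+ (red, left) and CCR6- (blue, right) libraries, marker shape giving the replicate number and bars the mean and SD. Ccnf, Ccnb2, Bub1, Kif2c, Kif20a and Hmgb2 do not overlap between groups, while Mki67, Top2a and Cenpf do, with CCR6- replicate 4 the lowest of its group in these 3.

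Among the genes of the spindle checkpoint and of the APC/C, all 7 had negative differences, with a median of -0.40 (-0.43 without CCR6+ replicate 2), and 2 of 7 were separated. Bub1, a checkpoint kinase that docks at kinetochores, showed the largest difference of all members. It stood at 626, 1135 and 666 in CCR6+ and at 1281, 1984, 1424 and 1395 in CCR6- libraries, where CCR6+ replicate 2 is the library closest to the CCR6- group. The difference was -0.94 (SE 0.28, limma adjusted p = 0.44, DESeq2 adjusted p = 0.0447) and -1.21 without that library, where DESeq2 gave an adjusted p = 0.000304. Cdc20, the APC/C activator, was also separated, at -0.62 (SE 0.22). Bub1b, for the checkpoint protein BUBR1 and the most abundant of the group, stood at 2406, 1993 and 2154 in CCR6+ and 2925, 3811, 2883 and 2143 in CCR6- libraries. Its groups overlapped through CCR6- replicate 4. Ttk and Mad2l1, for the checkpoint kinase MPS1 and for MAD2, overlapped at -0.36 and -0.33, as did Pttg1, for securin, at -0.67. Without CCR6+ replicate 2, Mad2l1 stood at -0.21. Ube2c, for the ubiquitin-conjugating enzyme that works with the APC/C, spread most among the CCR6- libraries. It held 1636, 1474 and 1505 in CCR6+ libraries, against 1610, 2942, 1610 and 915 in CCR6- libraries, and its difference of -0.081 became 0.0057 with equal library totals, -0.051 without CCR6+ replicate 2 and 0.20 without CCR6- replicate 2. Of the exonic bases of Ube2c, 22.8% overlap the opposite-strand gene Tnnc2.

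The chromosomal passenger complex corrects wrong attachments and directs cytokinesis, and all 4 of its genes were negative, with a median of -0.47 (-0.40 without CCR6+ replicate 2) and 3 of 4 separated. Cdca8, for the borealin subunit, stood at 2284, 1688 and 1945 in CCR6+ and 2529, 3343, 2677 and 4383 in CCR6- libraries, a difference of -0.69 (SE 0.25, limma adjusted p = 0.455) that was -0.58 without CCR6+ replicate 2. Aurkb, its kinase, stood at 2356, 2088 and 2752 in CCR6+ and 3101, 3433, 2795 and 2856 in CCR6- libraries. The gap between the groups is narrow there, at -0.35 (SE 0.17), or -0.25 without CCR6+ replicate 2. Birc5, for survivin, was separated at -0.59 (SE 0.24). Incenp, the scaffold of the complex and its most abundant gene, stood at 4291, 3385 and 3757 in CCR6+ and 5939, 4747, 5266 and 3784 in CCR6- libraries, with CCR6- replicate 4 below CCR6+ replicate 1.

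Of the 6 centromere and kinetochore genes 5 were negative, with a median of -0.33 (-0.26 without CCR6+ replicate 2), and 2 were separated. These were Nuf2 and Ndc80, which encode partners in the complex that grips microtubules. Nuf2 stood at 1291, 1322 and 1098 in CCR6+ and 1552, 2129, 1410 and 1413 in CCR6- libraries, a difference of -0.38 (SE 0.21, limma adjusted p = 0.515, -0.43 without CCR6+ replicate 2), and Ndc80 differed by -0.36. Spc25, of the same complex, differed by -0.36 and overlapped only through CCR6+ replicate 2. Cenpa, for the histone H3 variant of centromeres, stood at 5124, 3317 and 6010 in CCR6+ and 5287, 6594, 5674 and 5754 in CCR6- libraries. The low value of CCR6+ replicate 2 carries most of its difference, which was -0.31 with that library and -0.066 without it. Cenpf, for a large kinetochore protein, and Cenpe, for the kinetochore motor CENP-E, overlapped at 0.050 and -0.27. Cenpf stood at 1414, 1888 and 1904 in CCR6+ and 1890, 2500, 1606 and 1004 in CCR6- libraries, and its sign changed in 9 of the 20 other settings, among them TMM scaling, edgeR and DESeq2.

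All 7 spindle genes were negative, with a median of -0.43 (-0.42 without CCR6+ replicate 2), and 3 were separated. Kif2c, for the microtubule-depolymerising kinesin MCAK, stood at 1205, 858 and 1208 in CCR6+ and 1662, 1830, 1453 and 1822 in CCR6- libraries. Its means were 1090 ± 202 and 1692 ± 177 (SD, n = 3 and 4), a difference of -0.64 (SE 0.20, limma adjusted p = 0.44, DESeq2 adjusted p = 0.0479). That difference was -0.48 without CCR6+ replicate 2, where DESeq2 called 0 of the 7 spindle genes. Tpx2, for an activator of Aurora A and named after its values were seen, was separated at -0.52 (SE 0.16) and -0.51 without CCR6+ replicate 2. Stmn1, for the tubulin-binding protein stathmin, was separated at -0.60 (SE 0.24). Nusap1, for a spindle-associated protein and the most abundant of the group, stood at 4824, 3205 and 4297 in CCR6+ and 5042, 7811, 4597 and 4483 in CCR6- libraries, so the groups overlapped, at -0.40 with CCR6+ replicate 2 and -0.23 without it. Kif4, a chromokinesin gene, stood at 1723, 1326 and 1553 in CCR6+ and 2093, 1782, 1727 and 1497 in CCR6- libraries, the least negative of the group at -0.21 (SE 0.19), and at -0.11 without CCR6+ replicate 2. Kif11, for the motor that separates spindle poles, and Hmmr, for a spindle adaptor, overlapped at -0.43 and -0.25. For Hmmr the difference was -0.42 without CCR6+ replicate 2.

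The 6 cytokinesis genes were all negative as well, with a median of -0.27, or -0.18 and 5 negative without CCR6+ replicate 2, and 3 were separated. Kif20a, for the midzone kinesin MKLP2, stood at 1659, 1815 and 2057 in CCR6+ and 2792, 2624, 2361 and 2615 in CCR6- libraries. Both groups were tight here, with a difference of -0.50 (SE 0.16, limma adjusted p = 0.44, DESeq2 adjusted p = 0.0183) and -0.49 without CCR6+ replicate 2, where DESeq2 called 0 of the 6 cytokinesis genes. Of its exonic bases 29.3% overlap the opposite-strand gene Cdc23, and whether counting used strand is not known. Ect2, for the exchange factor that activates RhoA, and Prc1, for the midzone bundling protein, were separated at -0.45 and -0.35, or -0.51 and -0.23 without CCR6+ replicate 2. Racgap1, for a subunit of centralspindlin and the most abundant of the group, stood at 4831, 4370 and 5158 in CCR6+ and 5730, 5113, 5229 and 4309 in CCR6- libraries, a difference of -0.086 (SE 0.17) whose 95% interval ran from -0.49 to 0.32, and -0.022 without CCR6+ replicate 2. Its partner Kif23 stood at 2871, 1943 and 2601 in CCR6+ and 3167, 3400, 2606 and 1454 in CCR6- libraries. The difference of Kif23 was -0.052, 0.11 without CCR6+ replicate 2 and 0.035 with equal library totals, and that of Anln, for the scaffold anillin, was -0.19.

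With all 7 libraries, the 5 chromosome genes, which include the usual markers of proliferation, stood closest to no difference, with a median of -0.14 (-0.15 without CCR6+ replicate 2) and 1 of 5 separated. Relative to the CCR6- mean, their median was -0.495 in CCR6- replicate 4, against 0.27, 0.29 and -0.074 in CCR6- replicates 1 to 3. A fit with replicate number as a block gives CCR6- replicate 4 no weight. There Mki67 stood at -0.33, Top2a at -0.51, Hmgb2 at -0.64 and Ncapg at -0.20. Mki67 stood at 7161, 5716 and 7989 in CCR6+ and at 9833, 9281, 7064 and 5138 in CCR6- libraries. The CCR6- libraries span the whole CCR6+ range. The difference was -0.14 (SE 0.28, 95% interval -0.82 to 0.54, limma adjusted p = 0.819) and -0.0044 without CCR6+ replicate 2. Top2a, for the topoisomerase that untangles sister chromatids and the most abundant member, stood at 9534, 6456 and 9091 in CCR6+ and 12704, 12196, 10536 and 7462 in CCR6- libraries. Its groups overlapped only through CCR6- replicate 4, at -0.35 (SE 0.26) with CCR6+ replicate 2 and -0.17 without it. Hmgb2, for a DNA-bending chromatin protein, was the separated one, with 2269, 1717 and 2418 in CCR6+ and 2719, 4452, 2970 and 2654 in CCR6- libraries and a difference of -0.57 (SE 0.25, limma adjusted p = 0.478) that was -0.42 without CCR6+ replicate 2. The condensin I genes Ncapg and Ncapd2 differed by -0.031 and -0.096, and Ncapd2 by -0.15 without CCR6+ replicate 2. Ncapg stood at 3126, 2034 and 2963 in CCR6+ and 3106, 3566, 2555 and 1928 in CCR6- libraries, and its difference was 0.16 without CCR6+ replicate 2 and 0.056 with equal library totals.

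**Figure D5:**
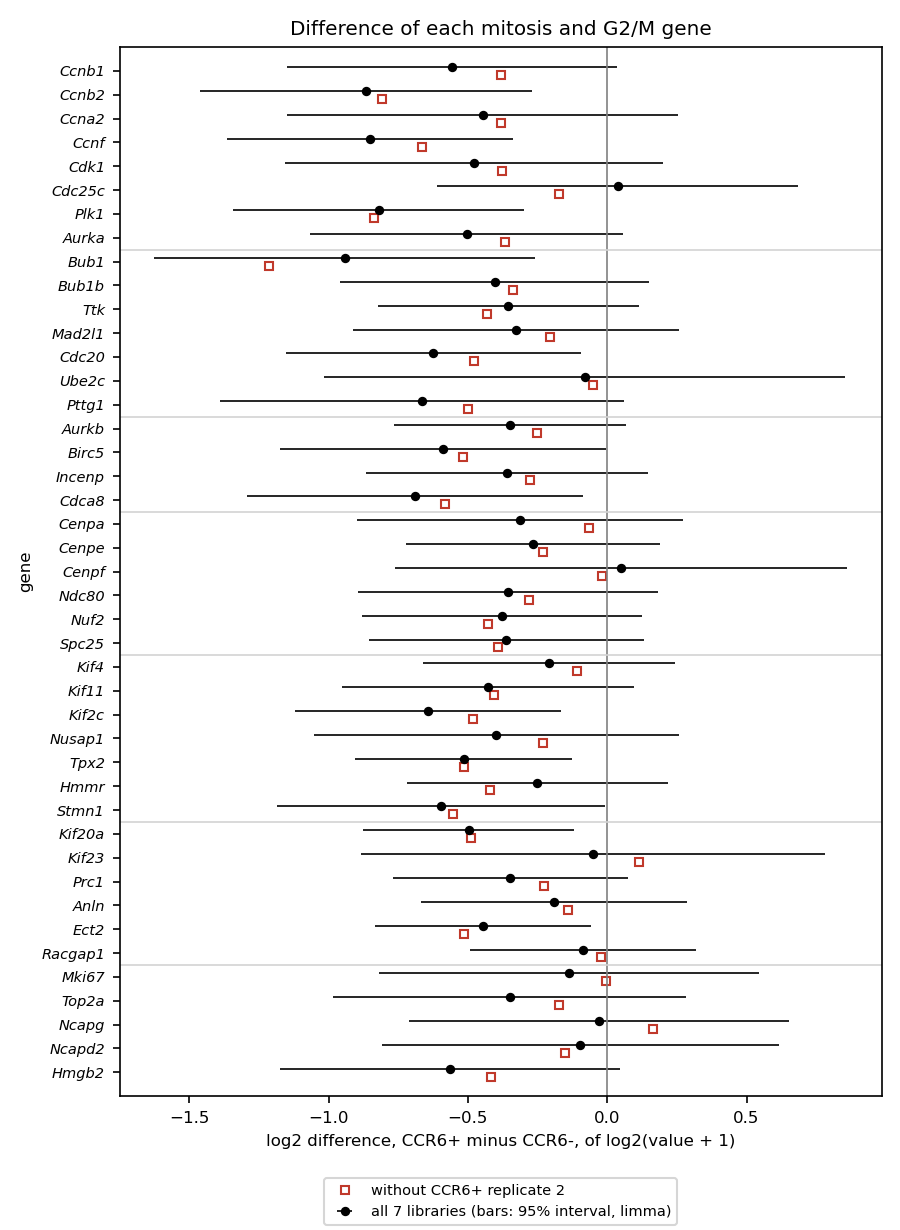
Log2 difference of each member, CCR6+ minus CCR6-, with all 7 libraries (black points, bars the 95% interval from limma) and without CCR6+ replicate 2 (open red squares), genes in the same order as in the heat map. Of the 43 black points 41 lie below 0, the interval lies wholly below 0 for 12 members, and Bub1 at -0.94 is the farthest out.

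Without CCR6- replicate 4 all 43 members were negative, against 43.9% of all genes and 63.1% of those in the members' range of means, and the median was -0.45. Of the 43, 28 were then separated, against 7.21% of all genes and 11.7% of those in the range. In that library, relative to the mean of the CCR6- libraries, the 22 members with at most 4919 exonic bases had a median of 0.0022 and the 21 longer ones a median of -0.23. Across the 43 members the Spearman correlation of this deviation with exonic length was -0.50 in CCR6- replicate 4, against 0.44 to 0.61 in 5 of the other libraries and -0.10 in CCR6- replicate 2. Over 7440 genes with a mean of at least 500 the value was 0.069, 0.24 and 0.11 in CCR6+ replicates 1 to 3, and 0.46, -0.36, 0.39 and -0.20 in CCR6- replicates 1 to 4, so a relation with length was not particular to CCR6- replicate 4. These correlations are across genes of the same library and only describe it. The mean subtracted from every library includes CCR6- replicate 4, so the values are not independent. Unlike signs between that library and the others arise in part from this baseline. Of the 22 shorter members 12 were separated (54.5%), with a median difference of -0.51 (-0.42 without CCR6+ replicate 2). Of the 21 longer members 6 were separated (28.6%), with a median of -0.31 (-0.21 without it). Among all genes with a mean of at least 500, 11.2% of the 3722 with at most 4919 exonic bases were separated downwards, with a median of -0.16 (-0.085 without that library). Of the 3718 longer ones 7.29% were, with a median of -0.059 (-0.030 without it). The part of transcript length in the differences of single members was not tested.

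Level per length differed widely among the members. Per kilobase of exonic sequence, Ccnb2 was the most abundant, with a mean level of 1700 normalised counts per kb in CCR6+ and 3178 in CCR6- cells, followed by Cdc20 at 1065 and 1638. At the low end Cdc25c held 84.5 and 81.9 normalised counts per kb, and Anln 73.9 and 85.2. The members with CHR letters in their window had a median difference of -0.36 (29 genes) and those without of -0.40 (7 genes), a description that separates no class of member.

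The other genes of the pathway, from a list of 116 in 6 groups, leaned the same way: 101 of 116 were negative, with a median of -0.27 (-0.21 without CCR6+ replicate 2), and 0 passed in limma or edgeR in either direction. At an unadjusted limma p under 0.05 there were 17 lower and 0 higher, against 2.35% of all genes lower and 8.22% higher. Of the 116, 28 were separated downwards, against 5.53% of all genes, and DESeq2 called 6 lower, against 0.973%. Without CCR6+ replicate 2 the numbers were 12 lower at that p (2.32% of all genes), 34 separated downwards (8.62%) and 3 called lower by DESeq2 (0.698%). Among the regulators of entry, Nek2, for a centrosomal kinase, stood at 1147, 830 and 1080 in CCR6+ and 1795, 1783, 1515 and 1691 in CCR6- libraries, a difference of -0.74 (SE 0.18, limma adjusted p = 0.403) that was -0.60 without CCR6+ replicate 2. Mybl2, for B-MYB, which joins MuvB to activate late genes, stood at 556, 867 and 515 in CCR6+ and 980, 888, 880 and 911 in CCR6- libraries, a difference of -0.54 that was -0.77 without CCR6+ replicate 2. Of the 31 further kinetochore genes 27 were negative, with Spc24, the partner of Spc25, at -0.52 and Cenpt, for a centromere linker protein, at -0.52. Of the 25 spindle genes 21 were negative, led by Kif18b, a kinesin gene, at -0.56 (SE 0.16), and Ckap2l at -0.49. The 23 genes of the checkpoint and APC/C gave 20 negative, with Fbxo5, for the APC/C inhibitor EMI1, at -0.67 and Anapc5, an APC/C subunit, at -0.59. For cytokinesis 7 of 10 were negative, with Cep55, for a midbody protein, at -0.65 (-0.39 without CCR6+ replicate 2) and Depdc1b at -0.47.

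All 6 further condensin genes were negative. With or without CCR6+ replicate 2, 4 of them were separated downwards, against 5.53% and 8.62% of all genes. Smc4, for the condensin ATPase, stood at 14568, 7206 and 15089 in CCR6+ and 22009, 24666, 23886 and 24932 in CCR6- libraries, a difference of -1.03 (SE 0.29, limma adjusted p = 0.435) that was -0.69 without CCR6+ replicate 2. Ncaph, a condensin I subunit, stood at 1965, 1827 and 1612 in CCR6+ and 2739, 2925, 2455 and 2820 in CCR6- libraries, at -0.60 with it and -0.62 without it. These are subunits of the complex to which Ncapg and Ncapd2 belong, whose groups overlapped.

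The genes that govern the decision to enter the cycle did not share one sign. Of 8 G1 cyclins and kinases 6 were negative. The 2 positive ones were both separated upwards, each at an unadjusted limma p under 0.05, and 0 were called. The largest difference among the 8 was 2.74, and it was smaller without CCR6+ replicate 2. Ccne1, for cyclin E1, stood at 772, 696 and 889 in CCR6+ and 1355, 1348, 1104 and 1492 in CCR6- libraries, a difference of -0.75 (SE 0.18, limma adjusted p = 0.401) that was -0.67 without CCR6+ replicate 2. Cdk6, a kinase partner of D cyclins, was the one of smaller p and smaller difference of the 2 positive genes. It stood at 1629, 1831 and 1442 in CCR6+ and 1265, 1043, 1149 and 831 in CCR6- libraries. Its difference was 0.62 (SE 0.20, limma adjusted p = 0.449). Of the 9 tested CDK inhibitors and pocket proteins 4 were negative. Cdkn1a, for the inhibitor p21, stood at 3903, 4706 and 1933 in CCR6+ and 1663, 2081, 1125 and 1630 in CCR6- libraries, a difference of 1.05 (SE 0.37, limma adjusted p = 0.449, 0.79 without CCR6+ replicate 2), with CCR6+ replicate 3 inside the CCR6- range. Cdkn2b, for p15, is scarce, with means of 152 ± 115 in CCR6+ and 53.0 ± 20.1 in CCR6- cells (SD, n = 3 and 4), a difference of 1.31 that was 0.73 without CCR6+ replicate 2. Of 8 E2F genes 7 were negative, with E2f1 and E2f2, for activators of S-phase genes, at -0.40 and -0.47, the value of E2f2 being -0.29 without CCR6+ replicate 2. For both Cdkn1a and Cdkn2b the difference was smaller without CCR6+ replicate 2, the library where the marker sums of other lung cells were highest. The part of these sums was not tested.

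The replication genes, which precede mitosis in the cycle, gave 14 of 14 negative with a median of -0.47 (-0.37 without CCR6+ replicate 2). Of the 14, 9 were separated downwards, against 5.53% of all genes, and 10 without CCR6+ replicate 2, against 8.62%. The one of smallest p was Rrm2, a subunit of ribonucleotide reductase, at -0.84, or -0.74 without CCR6+ replicate 2. Whether they differ from the mitosis genes in size was not tested.

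Markers of most other cell types had higher means in the CCR6+ group: all 6 B cell, all 7 tested macrophage and dendritic, all 7 epithelial, all 7 endothelial and stromal and all 5 tested granulocyte and mast cell markers had positive differences, with medians of 1.94, 2.39, 2.20, 1.87 and 2.68, or 1.45, 1.44, 0.89, 0.53 and 1.82 without CCR6+ replicate 2, where 2 epithelial, 3 endothelial and stromal and 1 granulocyte or mast cell marker turned negative. In sum, B cell markers held 42.3 to 184 RPM in CCR6+ and 16.5 to 115 RPM in CCR6- libraries, and granulocyte and mast cell markers 7.53 to 67.5 RPM and 0.614 to 10.5 RPM. Macrophage and dendritic markers held 304 to 2793 RPM and 27.6 to 473 RPM, epithelial markers 116 to 2850 RPM and 57.5 to 298 RPM, and endothelial and stromal markers 199.8 to 1208 RPM and 171 to 256 RPM. The 4 CD8, NK and innate lymphoid markers found in the files held 24.3 to 52.2 RPM and 15.02 to 45.7 RPM, and did not share a sign: 2 of the 4, Cd8a at -1.05 and Cd8b1 at -0.24, were negative, with a median of 0.12. The most positive of the 4 stood at 3.75. Without CCR6+ replicate 2, 3 of the 4 were negative, with a median of -0.089 and a maximum of 2.12. Mcpt4, of mast cells, was at 0 in every library but CCR6+ replicate 2. Marco was at 0 in CCR6+ replicate 1 and CCR6- replicate 2, Pdgfra and Pdgfrb in CCR6+ replicate 1, Pax5 in CCR6- replicates 3 and 4, Adgre1 and Siglecf in CCR6- replicate 4, and Zbtb16 in CCR6- replicates 2 and 4. The part of these cells in the levels of the mitosis genes was not tested.

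In mm10, after GENCODE release M21, all 43 members are annotated as protein coding. Bub1 lies on chromosome 2 from 127801122 to 127831865, Ccnf on chromosome 17 from 24222198 to 24251484, Ccnb2 on chromosome 9 from 70407692 to 70421547, Plk1 on chromosome 7 from 122159439 to 122169873 and Kif2c on chromosome 4 from 117159639 to 117182639. Mki67 lies on chromosome 7 from 135689784 to 135716361 and Top2a on chromosome 11 from 98992943 to 99024189. For 15 members some exonic bases are shared with another annotated gene, most for Kif20a, Ube2c and Kif4 (15.1%).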

How the data were processed

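RNA-seq values of 7 libraries were used, 3 CCR6+ and 4 CCR6-, grouped by their titles. Each deposited table gives 1 signal value per gene row, read here as a count divided by a size factor, since in each library 100% of the values are whole multiples of 1 step, within 0.001 reads. The submitters' processing notes list mm10 and the tools DESeq2 1.6.3, HTSeq 0.6.1p1 and STAR 2.5.1b without role or order. Annotation, filters and strand use were not given in the sources used here. Low-input SMART-Seq v4 cDNA was sequenced, per the labels. Division by the step gave reads; 1 read is worth 2.27 units in CCR6+ replicate 2 and 0.677 to 1.02 units in the other libraries.

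A filter (10 or more normalised counts in 3 or more libraries) kept 14582 genes, tested with limma 3.58.1 (R 4.3.3) on log2(value + 1), two-sided, no covariate, Benjamini-Hochberg adjustment over all of them at 0.05. Differences are CCR6+ minus CCR6- with limma's SE, on a scale that understates changes of low genes. EdgeR 4.0.16 and DESeq2 1.42.0 were run on the recovered reads. The members and lists were chosen with earlier results of these data known. Values in every library are given for Mki67 and, in each group, for the members of smallest p, of highest mean and of most positive difference. The 2 genes of smallest p are named from each other pathway list, with Ccnb2, Plk1 and Tpx2 added after seeing values. The genes in the members' range of means, the shares over all genes in each alternative, the split by length, the promoter motifs, and edgeR and DESeq2 without CCR6+ replicate 2 were chosen after seeing the data. Fits were tested on simulated counts with no outlying library and with changes larger than that of any member. That test therefore does not show whether changes of the members' size could be found.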

Additional observations from a re-analysis of the deposited data

Results flagged for a closer look

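A check for stray libraries covered 71 quantities within the CCR6- group (the members, the other named genes and the group medians). It picked out 6, and by chance about 5% would be picked out. The check was not run on the 3 CCR6+ libraries, among them replicate 2, which stands apart. In CCR6- replicate 2, Nusap1 held 7811 (normalised counts), where the rest of the group held 4483 to 5042, Hmmr held 2111 against 1763 to 1822 and Fbxo5 held 2459 against 1639 to 1748. CCR6- replicate 3 held 1800 of Ccnf against 2021 to 2065. In CCR6- replicate 4, Anapc5 stood at 19839 against 14092 to 14719, and the median log2 value of the 5 chromosome genes was 11.37 against 12.07 to 12.15.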

How the results depend on the processing

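The median log2 difference of the members lay between -0.48 (edgeR) and -0.28 (without CCR6- replicate 2) over the 20 alternatives, each within 0.2004 of the main value, the SD of the library medians within groups. Negative members numbered 37 with equal library totals (35.4% of all genes), 38 with quantile normalization (56.4%), 43 with TMM scaling (49% of all genes), and 38 to 43 with a library left out (42.4% to 46.4%). Separated members numbered 13 with equal library totals (3.94% of all genes), 21 with TMM scaling (7.26%), 16 with quantile normalization (8.7%), and 18 to 28 with a library left out (7.01% to 10.9%), the highest without CCR6- replicate 4 (7.21%). The median of all genes shifted by -0.18 with quantile normalization, 0.086 with equal totals and -0.080 with TMM scaling. Members called stayed at 0 except with DESeq2 (7, and 1 without CCR6+ replicate 2). Over all genes, limma called 0; the count was 1 with a pseudocount of 0.5, 2 with one of 8, 2 with a mean of at least 100, 1 with TMM scaling, all higher, 4 with quantile normalization (2 higher, 2 lower), 10 with robust trend (8 higher, 2 lower), 0 to 1 with a library left out (1, higher, without CCR6+ replicate 1), 2 with edgeR with or without CCR6+ replicate 2 (both higher), 664 with DESeq2 (530 higher, 134 lower) and 185 with DESeq2 without CCR6+ replicate 2 (105 higher, 80 lower). The cause of these shifts was not tested. Of 43 members, 36 kept their sign in every setting and 7 did not. Of 41 named genes, 6 had values of the other sign, none of them called. With equal library totals these were Ube2c 0.0057, Racgap1 0.00040, Kif23 0.035 and Ncapg 0.056; with TMM scaling Cdc25c -0.043 and Cenpf -0.031; with quantile normalization Cdc25c -0.37, Racgap1 0.046, Kif23 0.0058 and Ncapg 0.035. They were -0.047 and -0.099 for Cdc25c and Cenpf with edgeR, and -0.021 for Cenpf with DESeq2. Without CCR6+ replicate 2, edgeR gave Cdc25c -0.25, Cenpf -0.13 and Ncapg 0.073, and DESeq2 gave Cdc25c -0.18, Cenpf -0.065, Kif23 0.055 and Ncapg 0.14. With 1 library left out, Ube2c ranged from -0.36 to 0.20, Kif23 from -0.32 to 0.11, Ncapg from -0.20 to 0.16, Cdc25c from -0.17 to 0.18 and Cenpf from -0.19 to 0.25. Whether equal replicate numbers mark pairs is not known. Deviations of libraries of the same number had correlations of -0.13, -0.11 and 0.34 over the tested genes. Those of unlike number had correlations from -0.76 to 0.69. These values cannot decide it, since deviations are taken within small groups and CCR6+ replicate 2 stands apart. With the replicate block, in which CCR6- replicate 4 has no partner and carries no weight, 0 genes were called, all 43 members were negative at a median of -0.45, and Cdc25c and Cenpf stood at -0.12 and -0.19. Depth limits the members of few reads most, with 223 reads of Stmn1 in the library where it had fewest.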
